A study of Macaca mulatta with 45 samples.

Results

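Most of the genes described here code for the pore-forming and auxiliary subunits of voltage-gated sodium and calcium channels and of potassium channels of every class. They were chosen by name alone: every gene of the deposited count table whose rhesus symbol begins with KCN, or with SCN or CACN followed by the letters and digits of a channel subunit. The rule found 97 of 30246 gene IDs, of which 64 are potassium channel genes, 11 sodium channel genes and 22 calcium channel genes. After the filter on low counts 75 of them were tested for irradiation in all 3 regions, 9 in 1 or 2 regions and 13 in none, and no untested gene had more than 18 counts in any library.

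The samples were homogenised pieces of rhesus macaque brain, sequenced as total RNA after removal of ribosomal RNA. The 3 regions were white matter of the centrum semiovale, hippocampus, and dorsolateral prefrontal cortex (Brodmann area 46), and each of 15 animals gave 1 library per region. In the fWBI group, 5 animals were given 40 Gy to the whole brain, split into 8 fractions of 5 Gy, and were examined 12 months later. In the TBI group, 5 animals were given a single dose of 6.75 to 8.05 Gy to the total body and were examined 6 to 9 years later. The 5 Control animals were irradiated too, with 10 Gy to the thorax, and the dose that reached the brain is labelled 0.1 Gy and was estimated to lie below that. Dose, fractionation, irradiated volume and time since exposure therefore differ together between the fWBI and TBI groups, and their parts cannot be told apart. The labels do not give the age of the animals.

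Voltage-gated sodium channels carry the upstroke of the action potential, potassium channels repolarise the membrane and set its resting level, and calcium channels couple depolarisation to transmitter release and to signalling inside the cell. Most of these genes are strongest in neurons, but several potassium channels also serve glia: astrocytes buffer potassium through inward rectifiers, and oligodendrocyte precursors carry voltage-gated sodium, potassium and calcium channels that are lost as they mature. Deep white matter holds few neuronal cell bodies, so that most of its RNA comes from glia and vessels.

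Total counts ranged from 6625435 to 12541507 per library. Levels are given as CPM, the count of a gene relative to the TMM-scaled total of its library. Fold changes are log2 values ± SE, a standard error derived from the fold change and the statistic of its edgeR test. There were n = 5 animals per group unless animals were left out. Each adjusted p-value is that of the quasi-likelihood test of edgeR after Benjamini-Hochberg adjustment over all genes tested, with a threshold of 0.05. The words higher, lower, rose and fell are used below only of genes past that threshold, unless values of single libraries are being described. The channel genes took 0.108 to 0.124% of all counts in fWBI white matter and 0.117 to 0.141% in TBI white matter, against 0.112 to 0.465% in Control white matter. In hippocampus the share of all groups lay between 0.441 and 0.617% and in prefrontal cortex between 0.522 and 0.873%. Because these are bulk samples, fewer cells of a type and less RNA per cell cannot be told apart.

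The labelled regions differed in myelin genes: the mean of the 6 oligodendrocyte and myelin markers in the table, of 10 listed, was 10.45 to 10.95 log2 CPM in fWBI, 11.01 to 11.13 in TBI and 10.24 to 11.32 in Control white matter, against 5.36 to 6.49, 5.51 to 6.59 and 5.04 to 7.21 in prefrontal cortex of the same groups. The wide range of the channel genes in Control white matter came from 2 animals. The mean of 13 pan-neuronal markers was 8.77 log2 CPM in the white matter of Control animal 1 and 7.70 in that of Control animal 3, against 5.28, 5.59 and 5.38 in Control animals 2, 4 and 5. It was 4.93 to 5.88 in fWBI white matter and 5.13 to 5.82 in TBI white matter. The median of 84 channel genes was highest in the same 2 white matter libraries. It was 2.58 to 2.82 log2 CPM in fWBI white matter and 2.58 to 3.04 in TBI white matter, against 4.52 and 4.13 in Control animals 1 and 3 and 2.65 to 2.94 in the other 3 Control animals. The part that a larger share of neurons played in those 2 libraries was not tested, and most white matter results against Control are therefore given with and without them.

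**Figure D1:**
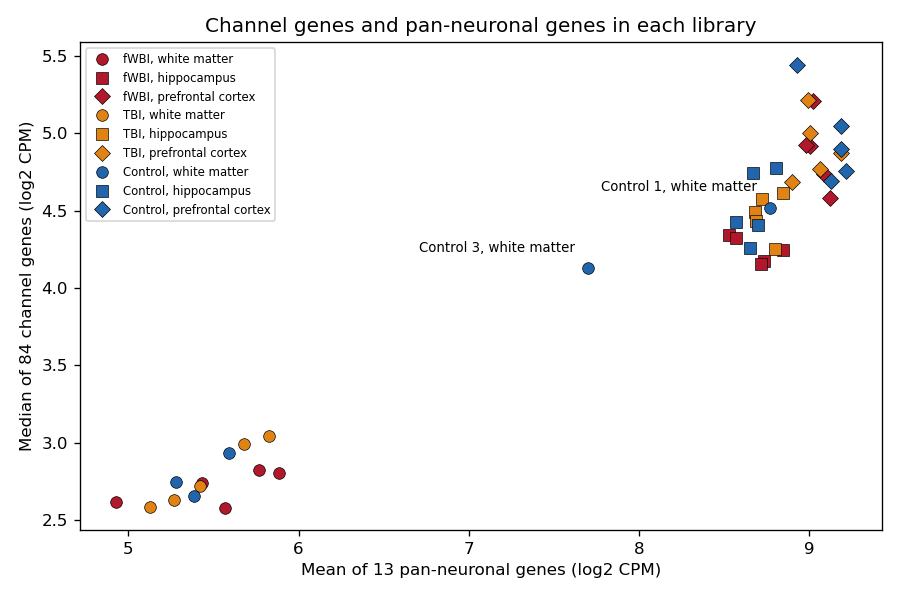
Median log2 CPM of 84 channel genes against the mean log2 CPM of 13 pan-neuronal genes, 1 point per library. The color marks the animal group and the shape the region. All fWBI and TBI white matter libraries and Control animals 2, 4 and 5 lie at the lower left, while Control white matter libraries 1 and 3 (4.52 and 4.13) lie near the hippocampus libraries.

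The first comparison was between regions of the same animals. White matter was lower than prefrontal cortex in most channel genes: 64 of 84 tested were lower in fWBI animals, 66 of 83 in TBI animals and 62 of 82 in Control animals, and 13, 13 and 8 were higher. Of all genes tested, 72.3% differed in fWBI animals, 74.4% in TBI animals and 60.1% in Control animals, of which 36.9, 37.7 and 30.8% were lower and 35.4, 36.8 and 29.3% higher in white matter. The median channel gene differed by -2.74 in fWBI animals, by -2.40 in TBI animals and by -1.78 in Control animals, whereas the medians of all genes were -0.02, 0.01 and -0.01. Without Control animals 1 and 3 the Control median was -2.46, with 65 of 83 lower and 11 higher, beside 62.8% of all genes called, 32% lower and 30.7% higher. Of 82 channel genes tested in all 3 animal groups, 61 (74.4%) were lower in white matter in each of them, against 27.8% of all genes, and 7 (8.54%) were higher in each, against 26.1% of all genes.

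The genes lower in white matter covered every voltage-gated class. All 6 tested sodium channel alpha subunit genes were lower in Control animals, with a median of -2.38, as were all 4 calcium channel beta subunit genes, all 4 KCNC genes, which code for fast delayed rectifiers, and 8 of 9 calcium channel alpha1 genes. Among the largest falls in Control animals were those of KCNG1 (-3.55 ± 0.30, adjusted p = 6.47e-06), KCNV1 (-3.46 ± 0.77), CACNA1G (-3.24 ± 0.55) and CACNG3 (-3.10 ± 0.59). KCNG1 and KCNV1 code for electrically silent subunits that modify other potassium channels, CACNA1G for a T-type calcium channel, and CACNG3 for an auxiliary subunit of AMPA receptors. The falls of KCNV1 and CACNG3 were -5.32 and -4.82 in fWBI animals and -5.48 and -4.95 in TBI animals.

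**Figure D2:**
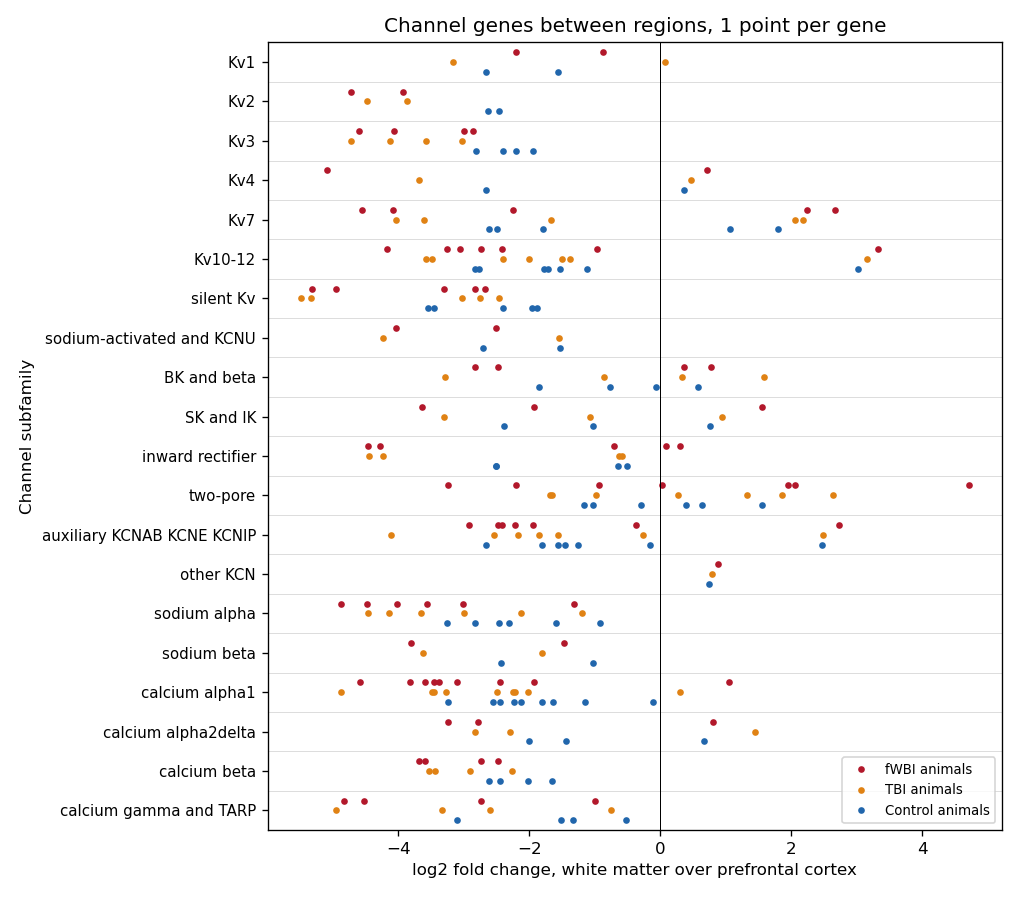
Log2 fold change of each tested channel gene, white matter over prefrontal cortex, by channel subfamily (rows) and animal group (color). Sodium channel and calcium channel alpha and beta subunits lie almost wholly below 0 in all 3 groups, while the K2P (two-pore) row and the row of auxiliary subunits spread to both sides.

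The 7 genes that were higher in white matter in all 3 animal groups all had symbols that begin with KCN. KCNH8 codes for a member of the ether-a-go-go family. Its level was 36.5, 29.1, 49.0, 21.5 and 74.1 CPM in the white matter of the 5 fWBI animals, 39.3, 45.5, 33.3, 28.8 and 57.7 CPM in that of the TBI animals and 16.9, 49.6, 46.5, 51.9 and 44.7 CPM in that of the Control animals. In prefrontal cortex KCNH8 was 5.78, 2.71, 3.58, 3.30 and 4.49 CPM in fWBI, 3.69, 3.09, 4.39, 3.67 and 8.04 CPM in TBI and 5.13, 10.1, 6.56, 2.66 and 2.14 CPM in Control animals. Every white matter library was above every prefrontal cortex library, and Control animal 1 was the lowest of the white matter libraries. The fold change of KCNH8 was 3.32 in fWBI animals, 3.15 in TBI animals and 3.02 ± 0.40, adjusted p = 9.90e-05, in Control animals. KCNE4, an accessory subunit that reduces the current of KCNQ channels, followed with 2.73, 2.48 and 2.47, and the K2P leak channel gene KCNK10 with 2.05, 1.85 and 1.56, in the order fWBI, TBI, Control. KCNQ1 differed by 2.67, 2.06 and 1.06. KCNQ1 lost the call in Control animals when single animals were left out, without Control animal 2, 3, 4 or 5 (adjusted p = 0.0612 to 0.139). Smaller differences were those of KCNMB4, the neuronal beta subunit of the BK channel (0.77, 1.58 and 0.57), and of KCNRG, a cytosolic protein that hinders potassium channel assembly (0.88, 0.79 and 0.74).

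Hippocampus and prefrontal cortex differed in fewer channel genes: 9 of 84 were higher and 27 lower in the hippocampus of fWBI animals, 16 and 38 of 83 in TBI animals, and 6 and 17 of 82 in Control animals. The percentages of all genes called were 23.4, 36.3 and 15.2% for the same animal groups, 12.1, 18.2 and 7.91% higher and 11.2, 18.1 and 7.31% lower in hippocampus, and the median channel gene differed by -0.28, -0.21 and -0.22. In each of the 3 animal groups 16 of 82 channel genes (19.5%) were lower in hippocampus, against 5.67% of all genes, and 3 (3.66%) were higher, against 5.97%. KCNS1, another silent subunit, had the largest fall. It stood at 2.53, 1.17, 1.93, 3.55 and 1.10 CPM in the hippocampus of fWBI animals, 1.94, 2.03, 1.37, 1.31 and 2.63 CPM in TBI and 1.93, 0.786, 1.74, 1.34 and 1.77 CPM in Control animals. In prefrontal cortex KCNS1 was 75.8, 33.6, 57.3, 41.8 and 55.3 CPM in fWBI, 63.2, 82.1, 59.3, 46.0 and 161 CPM in TBI and 106, 25.9, 44.2, 30.4 and 25.3 CPM in Control animals. The regions did not overlap, and prefrontal cortex of Control animal 1 and TBI animal 5 stood above the rest of their groups. The KCNS1 fold changes were -4.62 in fWBI, -5.46 in TBI and -5.03 ± 0.93, adjusted p = 0.00409, in Control animals. KCNH7, an ERG-type potassium channel gene, was also lower in all 3 groups (-2.20, -2.34 and -2.22). The 3 genes higher in hippocampus throughout were KCNE4 (1.68, 1.72 and 1.84), the T-type calcium channel gene CACNA1H (1.16, 1.26 and 1.33) and the sodium-activated potassium channel gene KCNT2 (0.77, 1.25 and 0.89). In Control animals other large falls were in CACNA1G (-1.94) and the sodium-activated potassium channel gene KCNT1 (-1.92), and the other large rises in the K2P gene KCNK17 (2.14 ± 0.61, adjusted p = 0.0339) and in KCNN2 (0.73), an SK channel gene. With single Control animals left out the count of 23 called channel genes lay between 11 and 22, at 11 without Control animal 3, 13 without animal 5 and 14 without animal 2 or 4. The number of all genes called in those fits is not given here. The calls of CACNA1H, KCNT2, KCNK17, KCNN2 and CACNA1G each ended in at least 1 of those fits.

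Whole-brain irradiation was followed by the largest differences in white matter. With all 5 Control animals, 37 of 77 tested channel genes were lower in fWBI white matter and 3 were higher, and the median channel gene differed by -1.22. Of all 15235 genes, 16.8% were called, 8.03% lower and 8.82% higher, and their median was -0.03. Without Control animals 1 and 3 the numbers were 8 lower and 6 higher of 79 tested, with a median of -0.16. Of all genes, 10.8% were then called, 3.56% lower and 7.29% higher. In all, 11 of the 40 genes called with every Control animal were also called without these 2: 8 lower and 3 higher. Leaving out Control animal 1 alone gave 18 called channel genes, Control animal 3 alone 19, fWBI animal 2 alone 19 and fWBI animal 3 alone 24. In the same order 1969, 1774, 1756 and 1979 genes were called in all, beside 2567 with every animal. With only the fWBI and Control libraries in the fit 15 were called, beside 11.1% of all genes. The 11 genes held their direction and stayed past the threshold in every alternative fit in which they were tested, and their largest adjusted p in any of them was 0.0208.

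**Figure D3:**
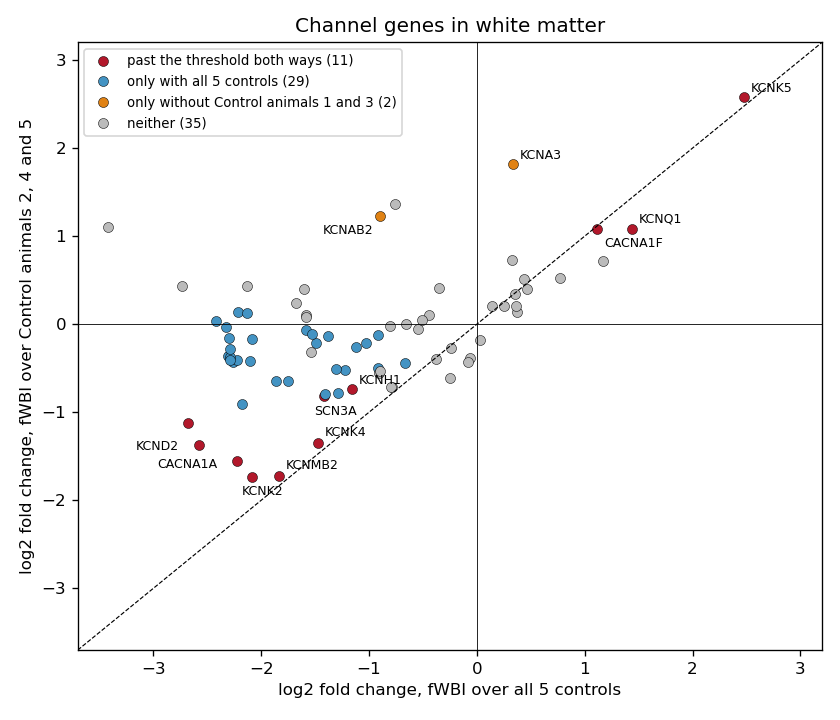
Log2 fold change of each channel gene in white matter, fWBI over all 5 Control animals (horizontal) and fWBI over Control animals 2, 4 and 5 (vertical), with the dashed line where both are equal. The 11 genes past the threshold both ways lie near the line or between it and the horizontal axis, while 29 genes called only with all 5 Control animals lie above the line, nearer to 0 on the vertical axis.

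Of the 8 stable falls, 7 are described here. KCND2 (ENSMMUG00000023308) codes for the main A-type channel of dendrites. Its level was 2.23, 0.699, 1.40, 2.99 and 2.33 CPM in fWBI, 5.38, 6.13, 5.04, 6.32 and 7.22 CPM in TBI and 26.5, 5.28, 17.3, 4.84 and 5.26 CPM in Control white matter. No fWBI library reached the lowest TBI or Control library, and Control animals 1 and 3 stood far above the rest. The KCND2 fold change against Control was -2.58 ± 0.49, adjusted p = 0.00167, and without the 2 libraries -1.37 ± 0.31, adjusted p = 0.00924. KCND2 overlaps TSPAN12 in the RefSeq annotation, and since the labels and processing notes do not say whether counting used strand, reads of overlapping genes may have been counted together.

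KCNH1 (ENSMMUG00000016102), an ether-a-go-go channel gene, stood at 32.3, 21.8, 32.5, 25.6 and 24.7 CPM in fWBI, 38.0, 47.8, 64.2, 37.7 and 35.5 CPM in TBI and 105, 44.9, 65.8, 42.1 and 53.4 CPM in Control white matter. The fWBI libraries lay below both other groups without overlap, though the gap to the lowest TBI library was small. The KCNH1 fold change was -1.16 ± 0.24, adjusted p = 0.00349, and -0.74 ± 0.19, adjusted p = 0.0208, without Control animals 1 and 3.

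The K2P genes KCNK2 (ENSMMUG00000016931) and KCNK4 (ENSMMUG00000017802) code for leak channels that open on membrane stretch and in response to lipids. KCNK2 was at 0.744, 0.400, 0.100, 0.398 and 0.519 CPM in fWBI, 0.957, 0.876, 1.31, 1.01 and 1.29 CPM in TBI and 3.08, 0.991, 2.03, 1.37 and 2.19 CPM in Control white matter. It was under 1 CPM in every fWBI library, below all TBI and Control libraries. KCNK2 passed the filter on low counts only through the TBI and Control libraries, where it is higher. It was tested in 15 alternative fits, whereas KCNK4 was tested in 16. The KCNK2 fold change was -2.08 ± 0.38, adjusted p = 0.00140, and -1.73 ± 0.42, adjusted p = 0.0151, without Control animals 1 and 3. KCNK4 was at 2.23, 2.20, 2.71, 3.78 and 3.72 CPM in fWBI, 5.02, 3.13, 4.48, 5.44 and 2.05 CPM in TBI and 11.5, 6.71, 7.19, 7.57 and 8.66 CPM in Control white matter. Here Control animal 1 was the highest Control library and Control animal 3 lay among the other Control libraries. Both irradiated groups lay below all Control libraries. The fWBI fold change of KCNK4 was -1.48 ± 0.27, adjusted p = 0.00122, and -1.35 ± 0.29, adjusted p = 0.00717, without the 2 libraries. KCNK4 overlaps CATSPERZ in the RefSeq annotation.

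KCNMB2 (ENSMMUG00000014426) codes for the beta subunit that gives BK channels, which calcium and voltage open together, their inactivation. It was at 2.61, 0.799, 1.91, 3.48 and 1.82 CPM in fWBI, 7.53, 4.50, 7.75, 6.95 and 6.04 CPM in TBI and 11.2, 6.27, 5.98, 6.46 and 8.77 CPM in Control white matter. The highest fWBI library was below the lowest of the other 10 libraries, and Control animal 3 was the lowest Control library. The KCNMB2 fold change was -1.83 ± 0.31, adjusted p = 0.000655, and -1.72 ± 0.32, adjusted p = 0.00282, without Control animals 1 and 3.

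SCN3A (ENSMMUG00000018840), the sodium channel alpha subunit best known from the developing brain, was at 29.1, 26.6, 31.9, 19.1 and 21.4 CPM in fWBI, 51.4, 39.3, 46.8, 41.0 and 49.3 CPM in TBI and 122, 56.9, 89.7, 39.1 and 42.8 CPM in Control white matter. The fWBI libraries lay below all others, and Control animals 1 and 3 were the 2 highest libraries. The SCN3A fold change was -1.42 ± 0.27, adjusted p = 0.00167, and -0.82 ± 0.17, adjusted p = 0.00673, without those 2. CACNA1A (ENSMMUG00000003555) codes for the pore of the P/Q-type calcium channel of nerve terminals. It was at 9.40, 5.30, 9.12, 8.06 and 9.68 CPM in fWBI, 17.6, 21.6, 21.8, 18.1 and 25.5 CPM in TBI and 59.1, 23.6, 64.5, 30.5 and 20.9 CPM in Control white matter. Every fWBI library was below every other library. The CACNA1A fold change was -2.22 ± 0.29, adjusted p = 9.84e-05, and -1.55 ± 0.18, adjusted p = 0.000107, without Control animals 1 and 3.

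**Figure D4:**
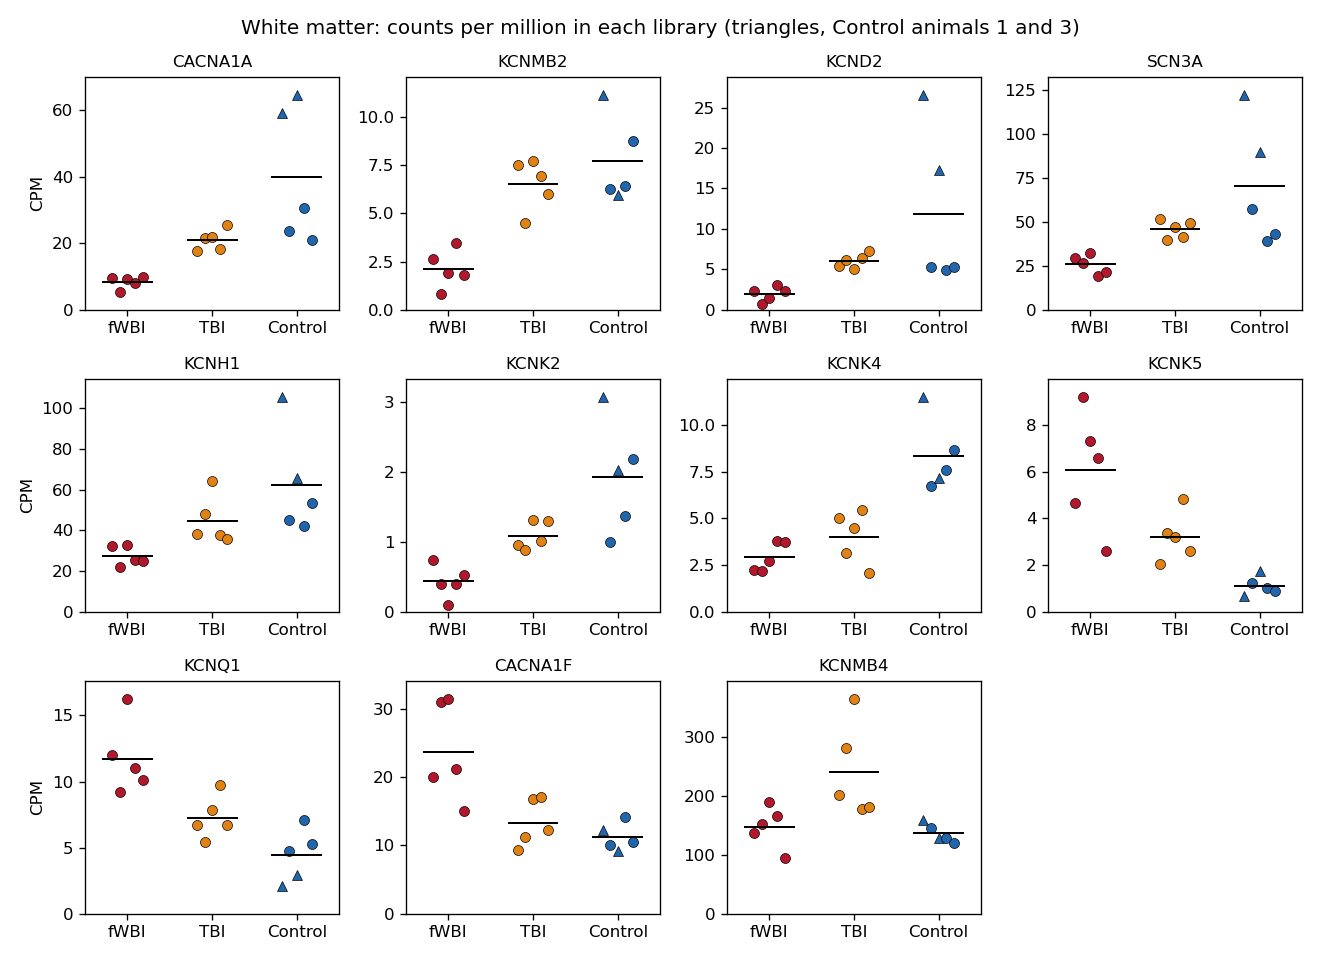
CPM of 11 channel genes in each white matter library of fWBI, TBI and Control animals, with a horizontal line at the group mean and triangles for Control animals 1 and 3. In the first 7 panels all fWBI libraries lie below all Control libraries, in KCNK5, KCNQ1 and CACNA1F above them, and in KCNMB4 the TBI libraries lie above all Control libraries.

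The 3 stable rises were in genes better known outside the brain. KCNK5 (ENSMMUG00000008993), a K2P channel gene studied mainly in kidney epithelium and lymphocytes, was at 4.65, 9.19, 7.32, 6.57 and 2.59 CPM in fWBI, 2.03, 3.38, 3.18, 4.80 and 2.59 CPM in TBI and 0.684, 1.21, 1.72, 0.993 and 0.877 CPM in Control white matter. Both irradiated groups lay above all Control libraries. The fWBI fold change of KCNK5 was 2.48 ± 0.36, adjusted p = 0.000214, and 2.58 ± 0.44, adjusted p = 0.00147, without Control animals 1 and 3. White matter was the only region in which KCNK5 passed the filter on low counts for the irradiation comparisons. It passed there through the irradiated libraries, where it is high, since the Control libraries lay near or below the level that the filter asks for. The fWBI call was past the threshold in all 16 alternative fits, among them the fit with no filter. KCNQ1 (ENSMMUG00000007742), the delayed rectifier gene of heart and epithelia, was at 12.0, 9.19, 16.2, 11.1 and 10.1 CPM in fWBI, 6.70, 5.38, 7.85, 9.73 and 6.68 CPM in TBI and 2.05, 4.73, 2.94, 7.08 and 5.26 CPM in Control white matter, with a fold change of 1.44 ± 0.28, adjusted p = 0.00223, and 1.08 ± 0.24, adjusted p = 0.00821, without the 2 libraries. The fWBI and Control libraries of KCNQ1 did not overlap, and Control animals 1 and 3 were the lowest. CACNA1F (ENSMMUG00000008618), an L-type calcium channel gene of photoreceptors, was at 19.9, 31.0, 31.4, 21.1 and 15.0 CPM in fWBI, 9.33, 11.3, 16.7, 17.1 and 12.2 CPM in TBI and 12.2, 10.0, 9.22, 14.2 and 10.4 CPM in Control white matter. The lowest fWBI library was just above the highest Control library. The CACNA1F fold change was 1.11 ± 0.23, adjusted p = 0.00317, and 1.08 ± 0.27, adjusted p = 0.0194, without Control animals 1 and 3.

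Marker genes of other cell types differed between the same libraries. The 10 oligodendrocyte precursor markers present in the table, of 11 listed, summed to 530.5 to 737 CPM in fWBI white matter and 1725 to 2104 CPM in TBI white matter, against 1198 to 2345 CPM in Control white matter. The 5 microglia markers present, of 8 listed, summed to 651 to 862 CPM in fWBI, 462 to 626 CPM in TBI and 291 to 500.4 CPM in Control white matter. None of the precursor and microglia markers was at 0 in any white matter library. The 3 choroid plexus and ependyma markers present, of 6 listed, summed to 9.66 to 27.9 CPM in fWBI, 2.51 to 3.56 CPM in TBI and 2.33 to 5.92 CPM in Control white matter, and 1 of them was at 0 in 1 fWBI library. The fWBI libraries were thus apart from both other groups in each sum, low in the first and high in the other 2. By mean log2 CPM only the precursor markers were apart from both. The microglia means of fWBI and TBI overlapped (6.26 to 6.96 and 6.09 to 6.57). The choroid plexus and ependyma means of fWBI and Control overlapped too (0.41 to 3.15 and -0.27 to 0.95). The summed astrocyte markers were apart from Control only, at 6787 to 13677 CPM in fWBI, 6752 to 7850.5 CPM in TBI and 5718 to 6504 CPM in Control white matter. Their mean log2 CPM was not apart, at 8.81 to 9.43 in fWBI, 9.11 to 9.40 in TBI and 9.02 to 9.22 in Control white matter. The oligodendrocyte and myelin markers of fWBI white matter were apart from TBI only. They summed to 21339 to 38232 CPM in fWBI, 38930 to 53789 CPM in TBI and 26028 to 51650 CPM in Control white matter. The part of any of these cell types in the channel gene results, falls and rises alike, was not tested.

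The other 29 falls were called only with all 5 Control animals. SCN8A, the sodium channel of nodes of Ranvier and axon initial segments, was among them. It was at 21.8, 17.0, 21.6, 30.3 and 35.1 CPM in fWBI, 22.1, 27.9, 20.1, 23.9 and 37.7 CPM in TBI and 351, 18.3, 213, 37.4 and 23.6 CPM in Control white matter. Control animals 1 and 3 exceeded every other library by several fold, and the other 3 Control libraries overlapped the irradiated ones. The SCN8A fold change against Control was -2.32 ± 0.66, adjusted p = 0.0239, and -0.03 ± 0.26, adjusted p = 0.964, without those 2. CACNG3 (-2.42 ± 0.73, adjusted p = 0.0334) and KCNJ3, a G-protein-gated inward rectifier gene (-2.30 ± 0.64, adjusted p = 0.0223), had values of 0.04 ± 0.41 and -0.36 ± 0.38 without the 2 libraries. The direction turned round for CACNG3, for the sodium channel gene SCN2A (-2.22 with all, 0.13 without) and for KCNC1 (-2.13 with all, 0.12 without). SCN1A, the sodium channel of fast-firing interneurons, was not called with all 5 (-1.61 ± 0.58, adjusted p = 0.0682) or without the 2 (0.39 ± 0.22, adjusted p = 0.327).

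Another 3 genes were called only when Control animals 1 and 3 were left out. KCNAB2 codes for an auxiliary subunit of axonal potassium channels. It was at 16.0, 18.9, 17.4, 30.0 and 14.4 CPM in fWBI, 9.09, 7.88, 9.81, 8.97 and 12.9 CPM in TBI and 102, 6.16, 57.8, 9.93 and 9.21 CPM in Control white matter. The fWBI libraries lay above all TBI libraries and above Control animals 2, 4 and 5, but below Control animals 1 and 3. The KCNAB2 fold change was -0.90 ± 0.59, adjusted p = 0.352, with all 5 and 1.23 ± 0.25, adjusted p = 0.00474, without the 2. KCNA3, the delayed rectifier of lymphocytes and activated microglia, was at 3.35, 5.10, 3.71, 5.18 and 2.59 CPM in fWBI, 1.91, 1.88, 0.841, 3.16 and 1.83 CPM in TBI and 7.40, 1.87, 5.27, 1.12 and 0.439 CPM in Control white matter, with a fold change of 0.33 ± 0.53 with all 5 and 1.82 ± 0.46, adjusted p = 0.0189, without the 2. KCNJ1, an inward rectifier gene of the kidney that overlaps KCNJ5 in the RefSeq annotation, was tested in white matter only in the smaller set. There it passed the filter on low counts only through the fWBI libraries, where it is high. Its call is therefore no support for a rise, although KCNJ1 is among the 6 higher genes counted above without Control animals 1 and 3. KCNJ1 had 2.23, 0.600, 1.60, 0.996 and 1.99 CPM in fWBI, 0.239, 0, 0.560, 0.253 and 0.431 CPM in TBI and 0.228, 0, 0.709, 0.621 and 0 CPM in Control white matter, so its fold change (2.90 ± 0.85, adjusted p = 0.0419) rests on a few counts per library. NPHP4 overlaps KCNAB2 in the RefSeq annotation.

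By class, the falls with all 5 Control animals fell in 17 of 20 groups of subunits. Of 5 tested sodium channel alpha subunit genes 3 fell with all 5, with a median of -1.61, and 1 fell without the 2, with a median of 0.10. For 9 calcium channel alpha1 genes the numbers were 5 lower and 1 higher (median -1.58), and 1 lower and 1 higher (median -0.37). All 3 calls among the calcium channel beta genes and both among the KCNT genes were lost without the 2 libraries. The K2P class had 2 lower and 1 higher of 6 tested in each set, with medians of 0.03 and 0.06. Channel-related genes with other symbols, among them HCN and sodium leak channel genes, auxiliary subunits and the scaffold and clustering proteins of nodes, were counted from a list of 28, of which 25 were in the table. With all 5 Control animals 11 were lower and none was higher (median -0.80), beside 8.03% of all genes lower and 8.82% higher. Without the 2 libraries 5 were lower and none higher, beside 3.56% lower and 7.29% higher of all genes: UNC80 (-0.93, adjusted p = 0.0117), a subunit of the sodium leak channel complex, FGF14 (-1.42, adjusted p = 0.0221), which binds sodium channels, DPP6 (-0.87, adjusted p = 0.0195), an auxiliary subunit of A-type channels, ABCC8 (-1.19, adjusted p = 0.00417), the sulfonylurea receptor of inward rectifiers, and CNTN1 (-0.52, adjusted p = 0.0452), an adhesion protein of axons.

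The fWBI and TBI white matter libraries had similar pan-neuronal levels and can be compared without any Control library entering the fold change. In this comparison 4 of 77 tested channel genes were lower and 1 was higher in fWBI white matter, beside 7.36% of all genes, 2.54% lower and 4.82% higher, and the median channel gene differed by -0.08. The lower genes were CACNA1A (-1.31 ± 0.29, adjusted p = 0.0103), KCNMB2 (-1.61 ± 0.31, adjusted p = 0.00362), the glial inward rectifier gene KCNJ16 (-1.59 ± 0.43, adjusted p = 0.0348) and KCNN2 (-0.76 ± 0.21, adjusted p = 0.0406), and the higher one was CACNA1F (0.85 ± 0.23, adjusted p = 0.0301). For CACNA1A, KCNMB2 and KCNN2 the libraries of the groups did not overlap, whereas those of KCNJ16 and CACNA1F did. With single animals left out the count was 2 to 6 in all, 2 without fWBI animal 2, TBI animal 2 or TBI animal 5 and 3 without fWBI animal 3, fWBI animal 4 or TBI animal 1. Of all genes, 748 to 1173 were called in those fits, beside 1122 with every animal. The calls of KCNJ16, KCNN2 and CACNA1F were each lost when any of several single animals was left out, and KCNJ16 also with only these groups in the fit (adjusted p = 0.0618).

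Control libraries entered that fit through the shared estimate of the spread. Without Control animals 1 and 3, 12 channel genes were lower and 4 higher in fWBI than in TBI white matter, beside 10.5% of all genes, 3.73% lower and 6.82% higher. Besides those named, KCND2 (-1.60 ± 0.27, adjusted p = 0.00160), SCN3A (-0.80 ± 0.15, adjusted p = 0.00354) and KCNH1 (-0.68 ± 0.17, adjusted p = 0.0174) were then called lower, and KCNAB2 (1.02 ± 0.21, adjusted p = 0.00512) and KCNQ1 (0.72 ± 0.20, adjusted p = 0.0299) higher. Among the 4 higher genes was also 1 inward rectifier gene. KCNJ1, of that class, entered this set only through the fWBI libraries, where it is high, so a call of it is no support for a rise. With all 15 libraries in the fit the fold changes were nearly the same, -1.61 for KCND2, -0.81 for SCN3A and -0.69 for KCNH1, with adjusted p-values of 0.0564, 0.0860 and 0.107. With the fWBI and TBI libraries alone 13 channel genes were called, beside 9.32% of all genes. KCNQ3, which codes for a subunit of the M-type channel, was among the lower genes in both of these smaller fits (-0.73 ± 0.17, adjusted p = 0.0121, without Control animals 1 and 3).

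Total body irradiation was compared with the same Control animals, so its fold changes and those of fWBI share their Control values. No channel gene was called in TBI white matter, beside 0.0722% of all genes. The median channel gene differed by -0.80 with all 5 Control animals and by -0.02 without Control animals 1 and 3. Without those 2 none was called, beside 0% of all genes. With all 5, 46 of 77 channel genes had an unadjusted p under 0.05 in edgeR's test, beside 2751 of 15235 genes. DESeq2 called 25 channel genes, beside 740 genes in all. The 3 smallest p-values belonged to KCNK5 (1.53 ± 0.37, adjusted p = 0.124), KCNK4 (-1.04 ± 0.26, adjusted p = 0.135) and KCNMB4 (0.83 ± 0.21, adjusted p = 0.135). KCNMB4 was at 136, 153, 189, 166 and 94.7 CPM in fWBI, 201, 282, 365, 178 and 180.4 CPM in TBI and 159.9, 145, 129, 128 and 121 CPM in Control white matter. All 5 TBI libraries lay above all 5 Control libraries, and fWBI and Control libraries overlapped (fold change 0.15 ± 0.21, adjusted p = 0.718, for fWBI against Control). Without Control animals 1 and 3 the TBI values were 1.62 ± 0.44, adjusted p = 0.345, for KCNK5, -0.92 ± 0.29, adjusted p = 0.471, for KCNK4 and 0.88 ± 0.25, adjusted p = 0.381, for KCNMB4.

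Whether the irradiation effect differed between white matter and the mean of hippocampus and prefrontal cortex was tested within animals on all 45 libraries. For fWBI 34 of 85 tested channel genes had a lower effect in white matter and 2 a higher one, beside 14.2% of all genes, 8.32% lower and 5.92% higher, and the median difference was -0.84. Without Control animals 1 and 3 the counts were 8 lower and 4 higher, beside 7.99% of all genes, 3.44% lower and 4.54% higher, with a median of -0.08. Leaving out Control animal 1 alone gave 12 in all, Control animal 3 alone 17 and fWBI animal 2 alone 20. The number of all genes called in those fits is not given here, so a shift of all genes cannot be told apart. All 8 stable falls were among the 8, with differences of -1.53 ± 0.28, adjusted p = 0.000734, for CACNA1A, -1.48 ± 0.28, adjusted p = 0.00112, for KCNMB2 and -1.30 ± 0.27, adjusted p = 0.00285, for KCND2, and of -1.92 for KCNK2, -1.01 for KCNK4, -0.73 for SCN3A and -0.59 for KCNH1. The higher ones were KCNAB2 (1.26), KCNA3 (1.95), the silent subunit gene KCNS3 (adjusted p = 0.0432) and CACNA1F (1.02). For TBI no channel gene was called, beside 0.0411% of all genes. An unadjusted p under 0.05 in edgeR's test was found for 42 of 85 channel genes, beside 2802 of 17014 genes. In the alternative fits that follow for TBI, the number of all genes called is given only for the last. In the others a shift of all genes cannot be told apart. DESeq2 called 13 channel genes. The count was 20 without the animal block, and 18, 11 and 30 without Control animal 2, 4 or 5, the animals with the lower neuronal markers, but 0 without both Control animals 1 and 3, beside 0.00581% of all genes. KCNMB4 had the smallest p of these (0.84 ± 0.17, adjusted p = 0.0615). Between hippocampus and prefrontal cortex no channel gene had a different fWBI effect by edgeR, beside 0% of all genes, or by DESeq2. An unadjusted p under 0.05 in edgeR's test was found for 2 channel genes, beside 323 of 17014 genes.

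In hippocampus 1 of 80 tested channel genes was called in fWBI animals, beside 0.742% of all genes, and the median channel gene differed by -0.16. This was CACNB1 (ENSMMUG00000000289), a beta subunit that brings calcium channels to the membrane. It was at 54.4, 49.4, 44.5, 50.6 and 46.7 CPM in the hippocampus of fWBI animals, 53.7, 55.0, 52.7, 54.6 and 58.8 CPM in TBI and 72.8, 55.4, 69.3, 68.5 and 73.4 CPM in Control animals. All fWBI libraries lay below all Control libraries, of which animal 2 was the lowest, and TBI libraries overlapped Control only at that animal. The CACNB1 fold change in hippocampus was -0.47 ± 0.08, adjusted p = 0.0100, for fWBI and -0.34 ± 0.08, adjusted p = 0.290, for TBI. The fWBI call held with each single animal left out but not with only the fWBI and Control libraries in the fit (adjusted p = 0.0714). In prefrontal cortex CACNB1 was at 74.9, 80.6, 75.5, 67.8 and 91.8 CPM in fWBI, 83.9, 70.1, 73.3, 74.2 and 75.7 CPM in TBI and 117, 95.2, 110.2, 86.3 and 107 CPM in Control animals. The TBI libraries did not overlap Control and 1 fWBI library did, with fold changes of -0.42 ± 0.10, adjusted p = 0.0602, for fWBI and -0.46 ± 0.10, adjusted p = 0.103, for TBI. The summed oligodendrocyte precursor markers were 399 to 549 CPM in the hippocampus of fWBI, 644 to 748 CPM in that of TBI and 601 to 902 CPM in that of Control animals, and 275 to 340.4, 422 to 529 and 397 to 599 CPM in prefrontal cortex. The 4 fibroblast and meninges markers present, of 5 listed, summed to 164 to 579.5 CPM in fWBI, 77.3 to 138 CPM in TBI and 59.2 to 134 CPM in Control hippocampus, and to 171 to 449, 86.7 to 172 and 52.8 to 124 CPM in prefrontal cortex. The fWBI libraries were apart from both other groups in each sum, low in precursor and high in fibroblast markers, except that the fibroblast sums of fWBI and TBI overlapped in prefrontal cortex. The part of these cell types in the grey matter results was not tested.

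In prefrontal cortex 2 of 82 tested channel genes were called in fWBI animals, beside 1.17% of all genes, with a median of -0.14. KCNH3 (ENSMMUG00000011097), an ether-a-go-go-like channel gene of forebrain neurons, was at 150.1, 179, 186, 166 and 194 CPM in fWBI, 178, 187, 172, 190.1 and 179.8 CPM in TBI and 289, 193, 225, 244 and 244 CPM in Control prefrontal cortex. Only fWBI animal 5 exceeded the lowest Control library, that of animal 2, and the TBI libraries lay below all Control libraries. The KCNH3 fold change was -0.47 ± 0.10, adjusted p = 0.0359, for fWBI and -0.41 ± 0.10, adjusted p = 0.129, for TBI, and -0.43 ± 0.11, adjusted p = 0.0884, for fWBI in hippocampus. KCNC2 (ENSMMUG00000012362), a fast delayed rectifier gene of interneurons, was at 318, 291, 318, 304 and 291 CPM in fWBI, 276, 266, 262, 262 and 311 CPM in TBI and 241, 228, 258, 237 and 236 CPM in Control prefrontal cortex. Both irradiated groups lay above every Control library. The fWBI fold change of KCNC2 was 0.32 ± 0.08, adjusted p = 0.0489. Both calls were near the threshold. KCNC2 lost it with any single animal left out (adjusted p = 0.0528 to 0.127) and KCNH3 in 8 of 10 such fits (0.0580 to 0.0968), that is, in all but those without Control animal 2 or fWBI animal 5. KCNH3 overlaps MCRS1 in the RefSeq annotation.

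**Figure D5:**
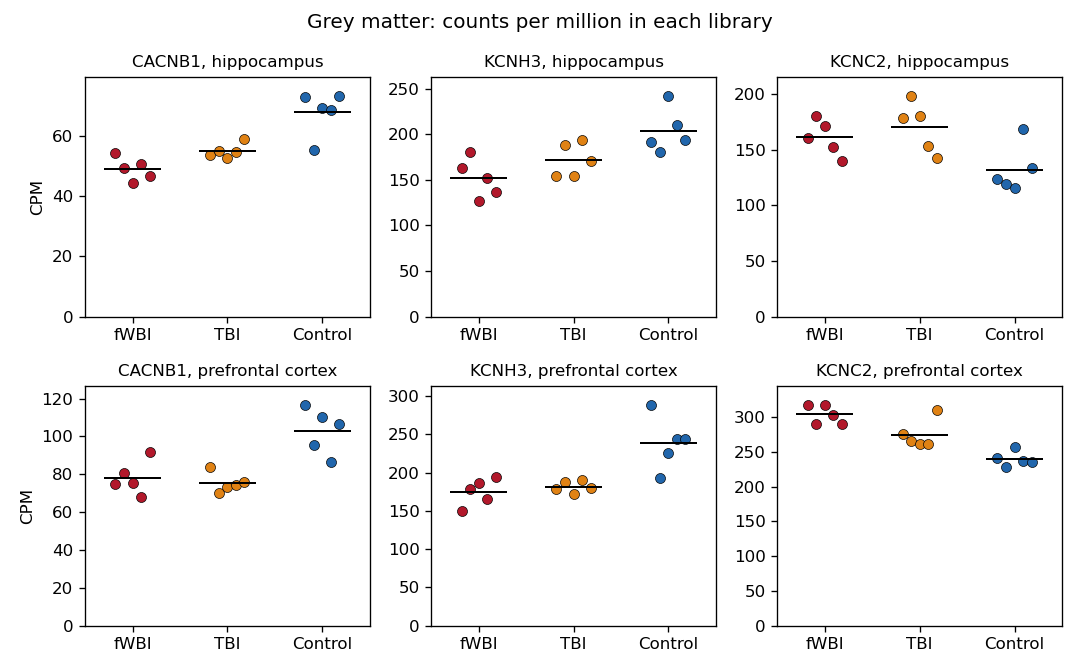
CPM of CACNB1, KCNH3 and KCNC2 in each library of hippocampus (top) and prefrontal cortex (bottom), with a horizontal line at the group mean. In hippocampus the CACNB1 values of fWBI animals (44.5 to 54.4) lie below those of Control animals (55.4 to 73.4), and in prefrontal cortex the KCNC2 values of fWBI animals (291 to 318) lie above those of Control animals (228 to 258).

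The remaining grey matter comparisons called no channel gene in edgeR's test. For TBI against Control in hippocampus 11 of 80 channel genes had an unadjusted p under 0.05 by edgeR, beside 1661 of 15357 genes. DESeq2 called 1 channel gene, beside 59 genes in all, whereas edgeR called 0% of all genes. After CACNB1 the smallest p-values there were those of KCNJ16 (1.14 ± 0.37, adjusted p = 0.349) and of the calcium channel alpha2delta gene CACNA2D4 (-0.73 ± 0.24, adjusted p = 0.354), which overlaps LRTM2 in the RefSeq annotation. For TBI against Control in prefrontal cortex 18 of 82 had an unadjusted p under 0.05 by edgeR, beside 1826 of 15531 genes. DESeq2 called 2 channel genes, and the number of all genes it called in this comparison is not given here. By edgeR 0% of all genes were called, which is no background for the DESeq2 count. SCN1A came after CACNB1 and KCNH3 there (0.35 ± 0.11, adjusted p = 0.221). Between fWBI and TBI animals 7 of 80 channel genes in hippocampus and 2 of 82 in prefrontal cortex had an unadjusted p under 0.05. The same held by edgeR for 1125 of 15357 and 751 of 15531 genes. DESeq2 called no channel gene in either region, beside 135 genes in all in hippocampus. The share of all genes called by edgeR was 0.339 and 0.29%.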

How the data were processed

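The authors deposited raw read counts per gene for all 45 libraries as whole numbers, which were used as deposited, and every column was matched to its library by the labels. Tools named in the submitters' processing notes were STAR and featureCounts, with FastQC and DESeq2, all without a version. Which build and annotation were used, and whether counting used strand, is not given in the sources used here, so no coordinates are printed. Symbols were matched by gene ID from a table of gene names (15769 IDs had one), and overlapping genes were looked up in the RefSeq annotation of another rhesus assembly, by name only.

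Irradiation comparisons were fitted within a region on its 15 libraries, regions were compared within the animals of each group (blocked by animal), and effects were compared between regions on all 45 libraries in the same way. Counts were scaled with TMM, filtered with edgeR's default filter and tested two-sided with the quasi-likelihood test (edgeR 4.0.16, R 4.3.3), with Benjamini-Hochberg adjustment over all genes and a threshold of 0.05. Log2 CPM used a prior count of 2. Replicates are separate animals per the labels. Libraries of 1 animal in different regions deviated together (median r = 0.31 across genes, over 0.1 in 41 of 45 pairs), which is the pairing of the block. The labels give no batch.

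The genes and lists were chosen with earlier results of these data known. Values are given for the 5 largest rises and falls past the threshold in each comparison with Control (mean of at least 1 CPM) and between regions of Control animals, for KCNMB4, SCN1A, SCN2A, SCN8A and CACNA1A in any case, and for the 3 smallest p-values where fewer than 3 genes passed. KCNJ10, KCNA1, KCNA2 and CACNG4 are not analysed here, and a few other members are left unreported. KCNA3, KCNAB2, KCNH1, KCNJ1, KCNK2, KCNMB2 and SCN3A, the genes named beyond the rule in other comparisons, and the partner genes named singly were chosen after their values were seen. The steps were checked on simulated data. Alternatives were DESeq2's size factors, the DESeq2 test (1.42.0), no filter, only the groups compared, a block by animal number, and fits without single animals or without Control animals 1 and 3.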

Additional observations from a re-analysis of the deposited data

Results flagged for a closer look

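In 16 of 216 sets of 5 values of a named gene in 1 group, 1 library lay far from the other 4. Chance alone flags about 1 set in 20. The lowest libraries were those of Control hippocampus animal 2 for CACNB1 (55.4 CPM, next 68.5), KCND2 (47.8 CPM, next 70.4) and SCN8A (229 CPM, next 397), and of Control prefrontal cortex animal 2 for KCNJ3 (101 CPM, next 123). The highest libraries were in Control animals those of prefrontal cortex animal 1 for KCNQ1 (3.70 CPM) and KCNAB2 (182 CPM), of prefrontal cortex animal 5 for KCNJ16 (5.06 CPM) and of hippocampus animal 1 for SCN1A (302 CPM). In fWBI animals they were those of hippocampus animal 5 for CACNA1F (10.5 CPM), of hippocampus and prefrontal cortex animal 2 for KCNJ16 (17.3 and 7.11 CPM), of prefrontal cortex animal 1 for KCNK5 (0.559 CPM) and of white matter animal 4 for KCNAB2 (29.97 CPM). In TBI animals they were those of white matter animal 5 for CACNG3 (3.23 CPM), of prefrontal cortex animal 5 for KCNC2 (311 CPM) and of white matter animal 3 for KCNH3 (32.5 CPM).

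The test of the difference itself found that the fWBI effect differed between white matter and the mean of hippocampus and prefrontal cortex in 36 channel genes, with the Control animals 1 and 3 included. Of the named genes, the effect in white matter was lower in KCND2 by -2.29, KCNK2 by -2.06, KCNJ3 by -1.91, KCNC2 and CACNG3 each by -1.78, CACNA1A by -1.72, KCNMB2 by -1.59, SCN8A by -1.53, KCNH3 by -1.37, SCN3A by -1.36, SCN1A by -1.34, KCNK4 by -1.17 and KCNH1 by -0.97 on the log2 scale. It was higher in KCNQ1 by 1.36 and in CACNA1F by 0.95. The calls of KCNJ3 (-0.42), SCN8A and KCNH3 (-0.08 each), KCNC2 (0.16), CACNG3 (0.098), SCN1A (0.064) and KCNQ1 (0.81) were lost without Control animals 1 and 3 in edgeR's test, with adjusted p-values of 0.121 to 0.930, and KCNC2, CACNG3 and SCN1A turned direction. The other genes named kept direction and call.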

How the results depend on the processing

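Counts of called channel genes moved by over 1.5 times as follows. Without Control animals 1 and 3 they were 14 for fWBI against Control in white matter (40 with all), 16 for fWBI against TBI in white matter (5 with all) and 12 for the difference of the fWBI effect between white matter and grey matter (36 with all). The second of these was added after seeing the data. With only the compared groups in the fit the counts were 15, 13, 0 and 0 for fWBI against Control in white matter, fWBI against TBI in white matter, and fWBI against Control in hippocampus and in prefrontal cortex. No filter on low counts gave 0 for the last. The DESeq2 test gave 25 for TBI against Control in white matter, 8 for fWBI against TBI there, 2 and 1 for fWBI and TBI against Control in hippocampus, 4 and 2 for the same in prefrontal cortex, and 13 for the difference of the TBI effect between white and grey matter. In the white matter and hippocampus comparisons it called 740, 1515, 277 and 59 genes in all, in the same order. For prefrontal cortex and the difference of the TBI effect the number of all genes called by DESeq2 is not given here. DESeq2's size factors moved no count that far. The cause of each was not tested, except that the smaller sets hold fewer libraries.

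Leaving out single animals gave 18 to 50 for fWBI against Control and 2 to 6 for fWBI against TBI in white matter, 1 to 3 for fWBI against Control in hippocampus (3 without Control animal 2), 0 to 2 in prefrontal cortex, 11 to 22 for hippocampus against prefrontal cortex in Control animals, and 12 to 48 and 0 to 30 for the differences of the fWBI and TBI effects between white and grey matter. Of all genes, 1756 to 3048 and 748 to 1173 were called in the white matter fits and 72 to 266 in the hippocampus fits. For the remaining fits the number of all genes called is not given here, so a shift of all genes cannot be told apart. Other counts stayed within 1.5 times in such fits.

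Of the genes called with all animals, the direction turned round without Control animals 1 and 3 for SCN2A (0.13), KCNC1 (0.12) and CACNG3 (0.041) in fWBI against Control white matter, and for KCNS1 (0.33), KCNC2 (0.16), SCN1A (0.064) and CACNG3 (0.098) in the difference of the fWBI effect between white and grey matter. None of these was past the threshold after the turn. Counting genes not called with all animals, 17 of 77 and 27 of 85 channel genes turned in these comparisons, among them SCN1A in the first, and KCNAB2 in both and KCNS3 in the second were past the threshold after the turn.

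Animals of different groups share only a number (median r = 0.01 over 45 pairs, over 0.1 in 15, and 10 of 45 libraries correlated best with their own number). With that number as a replicate block the counts were 22 for fWBI against Control and 8 for fWBI against TBI in white matter, 4 and 1 for fWBI and TBI against Control in prefrontal cortex, and within 1.5 times elsewhere. In the 2 white matter fits 2057 and 980 genes were called in all. Without the animal block the difference of the TBI effect between white and grey matter gave 20. For that fit and the prefrontal cortex fits the number of all genes called is not given here.

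Genes of few counts limit what these libraries can show: 13 channel genes could not be tested, and KCNK2, KCNK5 and KCNJ1 rest on few reads per library.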

Other observations

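Of the 25 channel-related genes with other symbols, 2 were lower in fWBI than in TBI white matter and none was higher, beside 2.54% of all genes lower and 4.82% higher: ABCC8, the sulfonylurea receptor of inward rectifiers (-1.35 ± 0.28, adjusted p = 0.00658 by edgeR), and its relative ABCC9 (-0.51 ± 0.14, adjusted p = 0.0405 by edgeR). With Control animals 1 and 3 left out, 5 were lower and none higher, beside 3.73% of all genes lower and 6.82% higher: these 2, UNC80, UNC79 and DPP6. In hippocampus and prefrontal cortex none of the 25 was called for fWBI or TBI against Control. Between white matter and prefrontal cortex of Control animals 16 were lower and 4 higher, beside 30.8% of all genes lower and 29.3% higher, and without Control animals 1 and 3 the numbers were 16 and 5, beside 32% lower and 30.7% higher. With all 5 animals, CNTN2, an adhesion protein of the juxtaparanode, was highest (3.43 ± 0.45, adjusted p = 8.93e-05 by edgeR), and CNTNAP2, its partner there, was lowest (-2.56 ± 0.47, adjusted p = 0.000793 by edgeR). Without the 2 animals their values were 4.10 and -3.72.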
